A study of Mus musculus with 12 samples.

Results

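The 10 genes described here move salt and water across the colon epithelium. They were chosen by symbol, not by their values, as the rows of the deposited table whose Ensembl identifiers carry the symbols Aqp8, Aqp4, Slc26a3, Slc9a3, Slc9a2, Scnn1a, Scnn1b, Scnn1g, Slc12a2 and Cftr. All 10 were found among the 54532 genes of the table. The table holds colon RNA-seq values of wild-type (WT) C57BL/6J mice in 4 groups of 3 libraries each. The CD group and the HFD group differed in diet, HFD standing for the high-fat diet of the series title, and the label CD is not spelled out there. The CD+DSS and HFD+DSS groups carried those same diet labels plus 2% DSS, dextran sulfate sodium, a polysaccharide that injures the colon lining and is used to induce colitis in mice. The labels name no age, no sex and no length of diet or DSS, and do not say that the 3 libraries of a group came from separate animals, so the p-values measure the spread between these libraries only.

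The colon takes up most of the salt and water that reaches it and secretes chloride when the contents need fluid. Uptake at the luminal membrane runs through paired exchangers, in which Slc9a3 (NHE3) and Slc9a2 (NHE2) trade sodium for protons and Slc26a3 (DRA) trades chloride for bicarbonate, and through the epithelial sodium channel ENaC, built from the subunits Scnn1a, Scnn1b and Scnn1g and controlled by aldosterone. Secretion runs the other way: Slc12a2 (NKCC1) loads chloride into the cell from the blood side and Cftr lets it out into the lumen. Water follows through membrane channels, among them Aqp8 and Aqp4.

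The promoters of 6 of the 10 genes were present in the RefSeq promoter table of GRCm38.p6 (Aqp8, Slc26a3, Slc9a3, Scnn1b, Scnn1g and Cftr). Scnn1a, Slc9a2, Aqp4 and Slc12a2 were not matched. Each entry runs from 250 bases before to 50 bases after the start that RefSeq gives, which for Slc26a3 lies inside the gene's GENCODE span given at the end. The 4 below are shown because they are the matched luminal exchangers, the chloride channel and the water channel whose levels are set side by side in the results. Capitals mark matches to 3 promoter motifs searched on both strands: the TATA box TATAAA, the GC box GGGCGG and the CCAAT box CCAAT. All 4 lie on the plus strand and are printed 5′ to 3′.
Slc26a3 (chr12:31437969-31438268, plus strand): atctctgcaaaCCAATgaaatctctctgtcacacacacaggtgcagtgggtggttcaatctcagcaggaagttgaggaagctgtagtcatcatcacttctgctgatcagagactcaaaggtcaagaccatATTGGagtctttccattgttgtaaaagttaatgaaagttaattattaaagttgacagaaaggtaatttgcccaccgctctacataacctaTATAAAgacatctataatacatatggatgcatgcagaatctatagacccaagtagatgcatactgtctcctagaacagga
Slc9a3 (chr13:74121163-74121462, plus strand): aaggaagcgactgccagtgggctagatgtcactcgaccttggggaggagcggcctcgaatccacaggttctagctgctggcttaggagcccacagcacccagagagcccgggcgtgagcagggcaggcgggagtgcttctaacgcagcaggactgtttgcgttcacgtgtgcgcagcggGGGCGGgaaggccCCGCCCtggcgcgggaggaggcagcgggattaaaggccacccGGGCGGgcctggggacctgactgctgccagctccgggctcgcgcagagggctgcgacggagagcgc
Cftr (chr6:18170437-18170736, plus strand): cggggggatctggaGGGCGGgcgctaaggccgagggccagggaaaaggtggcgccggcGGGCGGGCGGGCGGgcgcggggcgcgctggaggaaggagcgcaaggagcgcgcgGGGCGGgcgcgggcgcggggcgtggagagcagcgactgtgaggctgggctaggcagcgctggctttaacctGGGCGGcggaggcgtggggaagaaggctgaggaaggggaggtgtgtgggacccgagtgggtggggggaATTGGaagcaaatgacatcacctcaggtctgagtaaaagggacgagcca
Aqp8 (chr7:123462044-123462343, plus strand): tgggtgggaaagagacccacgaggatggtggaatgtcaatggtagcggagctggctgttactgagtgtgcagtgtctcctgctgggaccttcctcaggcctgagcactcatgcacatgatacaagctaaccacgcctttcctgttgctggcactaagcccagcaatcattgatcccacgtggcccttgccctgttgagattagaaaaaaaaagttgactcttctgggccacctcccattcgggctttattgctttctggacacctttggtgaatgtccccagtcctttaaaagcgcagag
The 4 promoters differed in these letters. Slc26a3 held a TATA box whose first base lies 30 bases before the start (position -30), a motif in 13.6% of the 32851 promoters of this length, and CCAAT boxes at -239 and, on the minus strand, -120. Slc9a3 held GC boxes at -71, -16 and, on the minus strand, -58. Cftr held 6 GC boxes on the plus strand, at -236, -192, -188, -184, -138 and -67, of which the 3 from -192 to -184 overlap each other, and a CCAAT box on the minus strand at position 2, counted from 1 at the start base. GC boxes stood in 35.7% and CCAAT boxes in 37.4% of all promoters. Aqp8 held none of the 3. The same search found a GC box in Scnn1b at -22 on the minus strand and 2 in Scnn1g at -98 and -67. The caudal-type homeobox core CATAAA (11.9% of promoters) was matched in Scnn1g only, at -7 on the minus strand, and the HNF4 direct repeat CAAAGTCCA (0.475%) in none of the 6. These are matches of letters and describe no binding.

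Each library held 14700000 to 17900000 fragments over genes, as recovered from the deposited values. All 8 epithelial markers (such as Epcam, Krt8 and Vil1) were above 0 in every library. Any tissue with epithelium can meet this, so it does not identify the colon. Libraries of the same group stood apart from each other. The level of 3 Hox genes of the posterior gut (the mean log2(FPKM + 1) of Hoxa13, Hoxb13 and Hoxd13) lay between 0.47 and 1.37 in HFD replicates 1 and 2 and CD+DSS replicates 2 and 3, and between 3.13 and 5.11 in the 8 other libraries. In a principal component analysis HFD+DSS replicate 1 lay far out on the second component and HFD+DSS replicate 3, which also had the highest summed smooth muscle markers (2953 FPKM against 622 to 1726 in the 11 others), on the third. These values are set beside the results they touch.

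Values are FPKM, fragments scaled to exon length and library size, so that levels can be compared between genes. Over all 12 libraries Aqp8 had the highest mean of the 10 genes, 194.2 ± 115.2 FPKM (SD, n = 12), followed by Aqp4 (94.7 ± 50.9), Slc12a2 (65.7 ± 21.2), Slc26a3 (59.2 ± 50.01), Slc9a3 (56.4 ± 25.3), Slc9a2 (47.8 ± 13.3), Cftr (19.2 ± 6.04) and Scnn1a (18.2 ± 8.43). These 8 neighbours in the order had overlapping ranges. The other two ENaC subunits were far lower: Scnn1b had a mean of 1.90 ± 0.70 FPKM and Scnn1g 0.37 ± 0.30 FPKM. The highest Scnn1b library (3.83 FPKM) was below the lowest Scnn1a library (9.44 FPKM), and the highest Scnn1g library (0.81 FPKM) below the lowest Scnn1b library (1.28 FPKM), so in FPKM the α subunit RNA exceeded the β and the β exceeded the γ in every library. In bulk tissue a lower level can mean fewer cells that express a gene or less RNA per cell, and the 2 cannot be told apart.

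**Figure D1:**
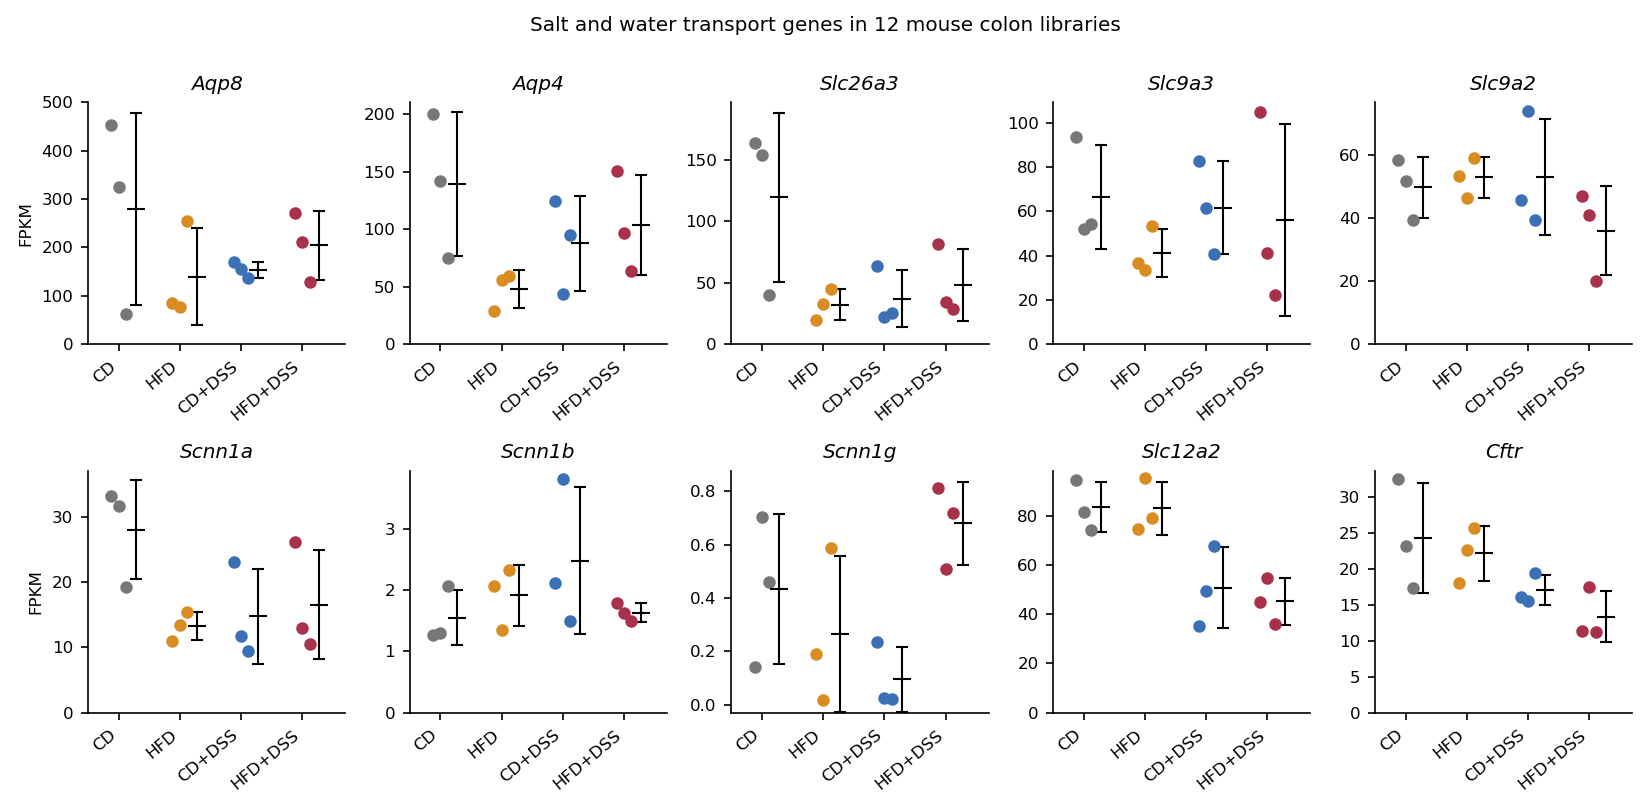
FPKM of the 10 genes (y axis, linear, 1 scale per gene) in each of 12 colon libraries (points, 3 per group) by group (x axis), with the group mean and SD as a black bar beside the points. Slc12a2 lies between 74.5 and 95.4 FPKM in the 6 libraries without DSS and between 35.3 and 67.9 FPKM in the 6 with DSS, whereas the groups of Aqp8 and Slc9a3 overlap throughout.

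Of the secretory pair, Slc12a2 fell with DSS and Cftr did not pass the test. Slc12a2 measured 94.8, 81.7 and 74.5 FPKM in CD, 74.7, 95.4 and 79.2 FPKM in HFD, 35.3, 49.3 and 67.9 FPKM in CD+DSS, and 45.0, 54.8 and 35.9 FPKM in HFD+DSS. Every DSS library lay below every library without DSS, an arrangement found in this direction for 1.29% of the 14179 genes tested. The mean was 83.4 ± 9.51 FPKM (SD, n = 6) without DSS and 48.0 ± 12.3 FPKM (SD, n = 6) with it. Averaged over both diets, Slc12a2 fell by 0.81 on the log2(FPKM + 1) scale (SE 0.17, limma adjusted p = 0.033), and it was the only one of the 9 tested transport genes that was called, which means an adjusted p under 0.05 over all genes tested. In that contrast 2.74% of all genes were called, 1.87% higher and 0.875% lower with DSS. Within each diet the difference was -0.75 (SE 0.24) for CD+DSS against CD and -0.88 (SE 0.24) for HFD+DSS against HFD, neither of which was called alone (limma adjusted p = 0.201 and 0.161). The averaged call was lost, with adjusted p from 0.0504 to 0.105 and differences from -0.85 to -0.70, when any 1 of 9 libraries was left out (CD replicates 1 and 2, HFD replicates 1, 2 and 3, CD+DSS replicates 1 and 2, and HFD+DSS replicates 1 and 3). Without both HFD+DSS replicates 1 and 3 the difference was -0.67 (limma adjusted p = 0.205).

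Cftr, the channel through which that chloride leaves the cell, measured 32.5, 23.1 and 17.3 FPKM in CD, 18.01, 22.6 and 25.7 FPKM in HFD, 16.0, 15.5 and 19.4 FPKM in CD+DSS, and 11.3, 17.4 and 11.2 FPKM in HFD+DSS. The 3 HFD+DSS libraries lay below the 3 HFD libraries, whereas CD replicate 3 lay within the CD+DSS range. HFD+DSS lay wholly below HFD for Slc12a2 and Cftr alone among the 9 tested members, and for 7.60% of all genes. The averaged difference for Cftr was -0.58 (SE 0.17, limma adjusted p = 0.0865), which did not pass the threshold. It passed only without CD replicate 3 (-0.68, limma adjusted p = 0.0489). Part of the Cftr exons overlaps Gm15592, an antisense transcript on the opposite strand, and the sources used here do not say whether counting used strand, so the reads of the 2 genes cannot be told apart there.

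Cell markers are given here for the same contrast. The summed level of 4 crypt base markers (Lgr5, Axin2, Ascl2 and Smoc2, genes of the stem cell zone) was 12.7 to 16.9 FPKM in CD, 13.9 to 16.4 FPKM in HFD, 6.14 to 13.0 FPKM in CD+DSS and 7.33 to 12.8 FPKM in HFD+DSS, and none of the 4 was at 0 in any library. Of the 3 of them that were tested, Axin2 alone was called, at 5.44 to 10.04 FPKM in the 6 libraries without DSS and 2.48 to 4.09 FPKM in the 6 with DSS. The highest Smoc2 library (CD+DSS replicate 3, 6.56 FPKM) and the highest Ascl2 library (HFD+DSS replicate 3, 2.94 FPKM) were DSS libraries. Gfap, a glial gene singled out after its values were seen, was 0.91 to 1.22 FPKM without DSS and 2.76 to 9.79 FPKM with DSS. The 8 epithelial markers summed to 4534 to 5216 FPKM in CD and 5478 to 8510 FPKM in CD+DSS, and to 3772 to 5727 FPKM in HFD and 4965 to 5728 FPKM in HFD+DSS. With the epithelial level as a covariate the Slc12a2 difference was -0.64 (SE 0.23) and no longer called (limma adjusted p = 0.397). Over all genes that fit called 18, beside 389 in the main fit, so calls were lost broadly. The part of the crypt base or of glia in the Slc12a2 and Cftr values was not tested.

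**Figure D2:**
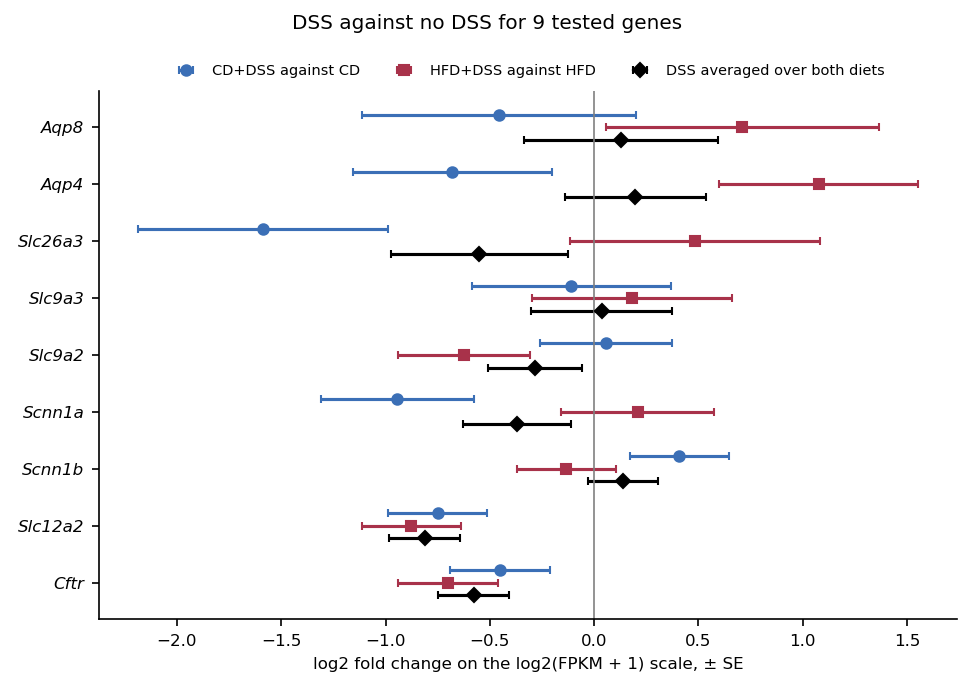
Log2 fold changes on the log2(FPKM + 1) scale (x axis) with limma's SE as bars for the 9 tested genes (y axis), for DSS under the CD diet (circles), under HFD (squares) and averaged over both (diamonds). Slc12a2 and Cftr lie on the lower side in both diets, and Aqp4 lies at -0.68 under CD and 1.08 under HFD.

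The uptake genes varied mostly from library to library. Slc26a3, the chloride-bicarbonate exchanger, measured 163.9, 154.4 and 40.1 FPKM in CD, 19.3, 32.9 and 44.6 FPKM in HFD, 63.6, 21.9 and 25.3 FPKM in CD+DSS, and 81.6, 34.5 and 28.4 FPKM in HFD+DSS. CD replicates 1 and 2 stood far above the 10 other libraries, and CD replicate 3 lay inside the ranges of the other groups. The differences were -1.59 (SE 0.60) for CD+DSS against CD, -1.69 (SE 0.60) for HFD against CD and -0.55 (SE 0.42) for DSS averaged over both diets, and none was called (limma adjusted p = 0.265, 0.979 and 0.452). The first 2 of these comparisons share the CD libraries.

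Scnn1a, the ENaC subunit that every channel contains, measured 33.1, 31.7 and 19.3 FPKM in CD, 11.0, 13.5 and 15.4 FPKM in HFD, 23.1, 11.7 and 9.44 FPKM in CD+DSS, and 26.1, 13.0 and 10.5 FPKM in HFD+DSS. All 3 HFD libraries were below all 3 CD libraries, as they were for Aqp4 and for no other tested member, and for 5.02% of all genes. The difference for HFD against CD was -1.0 (SE 0.37) and that for CD+DSS against CD -0.94 (SE 0.37), neither called (limma adjusted p = 1 and 0.272). Sums of other cell markers overlapped between the 2 diets. Those of the 3 posterior Hox genes, markers of position, did not: 38.3 to 111.1 FPKM in CD and 7.04 to 34.75 FPKM in HFD, with Hoxb13 and Hoxd13 at 0 in some libraries. The 4 fat markers summed to 28.8 to 100.8 FPKM in HFD and 4.34 to 38.3 FPKM in CD, with Plin1 at 0 in some libraries. The 4 goblet markers summed to 1576 to 2449 FPKM in HFD and 2440 to 5895 FPKM in CD, none at 0. Of the highest goblet sum, that of CD replicate 3, Clca1 alone made up 3795 FPKM. No fat or goblet marker was called, and the part of these cells in the Scnn1a, Slc26a3 and Aqp4 values was not tested.

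The other ENaC subunits were measured at low depth. Scnn1b measured 1.28, 1.30 and 2.07 FPKM in CD, 2.07, 1.36 and 2.33 FPKM in HFD, 2.12, 3.83 and 1.502 FPKM in CD+DSS, and 1.79, 1.62 and 1.49 FPKM in HFD+DSS, from 54 to 136 fragments, and its groups overlapped. Its averaged DSS difference was 0.14 (SE 0.17, limma adjusted p = 0.642). Scnn1g measured 0.14, 0.70 and 0.46 FPKM in CD, 0.19, 0.019 and 0.59 FPKM in HFD, 0.24, 0.025 and 0.022 FPKM in CD+DSS, and 0.81, 0.51 and 0.72 FPKM in HFD+DSS. It never reached 1 FPKM and was therefore the 1 member not tested. These values rest on 1 to 41 fragments per library, and HFD replicate 2 and CD+DSS replicates 2 and 3 held 1 fragment each. The 3 HFD+DSS libraries were all above the 3 CD+DSS libraries. This held for 3.60% of the tested genes, a set that leaves out Scnn1g and other genes as low, so that share is no matched background.

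For the sodium-proton exchangers the DSS and no-DSS libraries overlapped in both diets. Slc9a3 measured 93.6, 51.9 and 54.2 FPKM in CD, 36.8, 33.5 and 53.5 FPKM in HFD, 82.9, 61.7 and 40.7 FPKM in CD+DSS, and 104.8, 41.2 and 22.1 FPKM in HFD+DSS, so both its highest and its lowest library were HFD+DSS. Its averaged DSS difference was 0.04 (SE 0.34, limma adjusted p = 0.958). Slc9a2 measured 58.3, 51.6 and 39.1 FPKM in CD, 53.3, 46.1 and 59.0 FPKM in HFD, 45.5, 73.9 and 39.2 FPKM in CD+DSS, and 46.9, 40.8 and 20.04 FPKM in HFD+DSS. The averaged difference for Slc9a2 was -0.28 (SE 0.22, limma adjusted p = 0.464). HFD+DSS replicate 3 was the lowest of the 12 libraries for both exchangers. It had the highest smooth muscle markers, and its 8 epithelial markers summed to 5728 FPKM, the highest of its group. The 4 surface colonocyte markers (Krt20, Car4, Cdhr5 and Ceacam20) summed to 733.9 FPKM there, the lowest of the 12. Their highest sum, 2332 FPKM, was in HFD+DSS replicate 1, the library with the highest Slc9a3. Slc9a2 was highest in a CD+DSS library. The part of muscle or surface cells in these values was not tested.

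Of the water channels, Aqp8 measured 452.1, 324.3 and 63.2 FPKM in CD, 85.5, 76.8 and 254.6 FPKM in HFD, 170.2, 154.9 and 136.6 FPKM in CD+DSS, and 271.8, 211.9 and 128.8 FPKM in HFD+DSS. Its highest and its lowest library were both CD, and its averaged DSS difference was 0.13 (SE 0.46, limma adjusted p = 0.885). The 3 CD+DSS libraries lay close together (153.9 ± 16.8 FPKM, SD, n = 3), whereas the 3 CD libraries spread over a mean of 279.9 ± 198.2 FPKM (SD, n = 3).

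Aqp4 measured 200.5, 142.2 and 75.3 FPKM in CD, 28.9, 55.8 and 59.3 FPKM in HFD, 124.2, 43.3 and 95.4 FPKM in CD+DSS, and 150.5, 96.7 and 64.0 FPKM in HFD+DSS. The HFD libraries were the low group: all 3 lay below all 3 CD libraries and below all 3 HFD+DSS libraries, the latter an arrangement found for 8.82% of all genes. The differences were -1.47 (SE 0.48) for HFD against CD and 1.08 (SE 0.48) for HFD+DSS against HFD, and neither was called (limma adjusted p = 0.892 and 0.361). These 2 comparisons share the HFD libraries. Averaged over both diets the DSS difference for Aqp4 was 0.20 (SE 0.34).

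Slc26a3, Aqp4 and Scnn1a had the smallest p of the 9 tested members for a diet-dependent DSS difference. The interaction, which is the DSS difference under HFD minus that under CD, was 2.07 (SE 0.85) for Slc26a3, 1.76 (SE 0.67) for Aqp4 and 1.15 (SE 0.52) for Scnn1a, each at an unadjusted limma p under 0.05 and none called (adjusted p = 0.87, 0.847 and 0.912). With the posterior Hox level as a covariate these interactions were 0.065 (SE 1.09) for Slc26a3, 0.50 (SE 0.96) for Aqp4 and 0.18 (SE 0.735) for Scnn1a. The Hox level moved with this contrast, so it and a diet-dependent DSS difference cannot be told apart. With the epithelial level as a covariate, chosen after seeing the data, the interactions were 1.96 (SE 0.96), 1.45 (SE 0.71) and 1.18 (SE 0.585) in the same order. No gene of the 14179 was called in the interaction, in HFD against CD or in HFD+DSS against CD+DSS (0% each), with 769, 588 and 938 genes at an unadjusted p under 0.05 in limma and none called by limma-voom on the recovered fragments. No member was called within 1 diet either, where 0.0846% of genes were called for CD+DSS against CD and 0.339% for HFD+DSS against HFD. CD+DSS lay wholly below CD for Slc12a2 alone among the tested members and for 10.4% of all genes. The median difference over the 9 tested members was -0.46 for CD+DSS against CD, -0.65 for HFD against CD, 0.18 for HFD+DSS against HFD and -0.14 for HFD+DSS against CD+DSS, beside medians over all genes of 0.01, -0.02, 0.01 and -0.03. Several of these medians rest on the libraries that stand apart. With the posterior Hox level as a covariate they were -0.10, -0.25, -0.24 and -0.42 in the same order. Leaving out CD replicate 1 gave -0.23 for CD+DSS against CD and -0.27 for HFD against CD, leaving out HFD+DSS replicate 1 gave -0.18 for HFD+DSS against HFD, and leaving out HFD+DSS replicate 3 gave 0.46 for the same contrast and 0.15 for HFD+DSS against CD+DSS. Averaged over both diets the DSS medians were -0.28 for the members and 0.01 for all genes, with 4 of 9 members above 0 and 5 below, and the member median was -0.10 without HFD+DSS replicate 3.

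Across the 12 libraries the 10 genes fell into pairs that moved together and pairs that did not. Of 45 pairs, 6 had a Pearson correlation of log2(FPKM + 1) with a permutation p under 0.05 after Benjamini-Hochberg adjustment over the 45 (100000 resamples, two-sided), and 3 of these also by Spearman's rho. Slc26a3 and Scnn1a were the closest, with r = 0.955 (permutation p = 3e-05, adjusted 0.00135) and rho = 0.93 (permutation p = 4e-05, adjusted 0.0018). Without the 2 libraries farthest from the median of Slc26a3 their r was 0.923, and it was 0.976 in the 6 libraries without DSS, 0.961 in the 6 with DSS and 0.917 for deviations from the group means. Slc26a3 and Aqp4 had r = 0.855 (permutation p = 0.0002, adjusted 0.0045) and rho = 0.846 (permutation p = 0.00082, adjusted 0.0123), with r = 0.772 without the 2 farthest libraries, 0.97 without DSS, 0.856 with DSS and 0.887 for deviations from the group means.

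The secretory pair was the third. Slc12a2 and Cftr had r = 0.84 (permutation p = 0.00044, adjusted 0.0066) and rho = 0.874 (permutation p = 0.0005, adjusted 0.0112), with r = 0.867 without the 2 farthest libraries, 0.729 without DSS, 0.668 with DSS and 0.629 for deviations from the group means. Without HFD+DSS replicate 3 the r was 0.789 (permutation adjusted p = 0.0526). Slc12a2 and Slc26a3, by contrast, had r = 0.214 (permutation p = 0.504, adjusted 0.673) and rho = 0.189 (permutation p = 0.559, adjusted 0.718). Cftr was less apart from the uptake genes without DSS. Its r with Slc26a3 was 0.403 (permutation p = 0.195, adjusted 0.488), 0.706 without DSS, -0.393 with DSS and 0.418 for deviations from the group means. With Aqp8 it was 0.32 (permutation p = 0.312, adjusted 0.539), 0.853, -0.244 and 0.672 in the same order. The 3 remaining pairs passed by r alone: Aqp4 with Scnn1a (r = 0.774), Aqp8 with Slc26a3 (r = 0.748) and Slc9a3 with Scnn1a (r = 0.744). Each of them missed the threshold without any 1 of 8, 8 and 10 of the 12 libraries, their r staying between 0.643 and 0.879. The libraries of a correlation share the diet and DSS groups, the scaling and the tissue makeup described above.

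**Figure D3:**
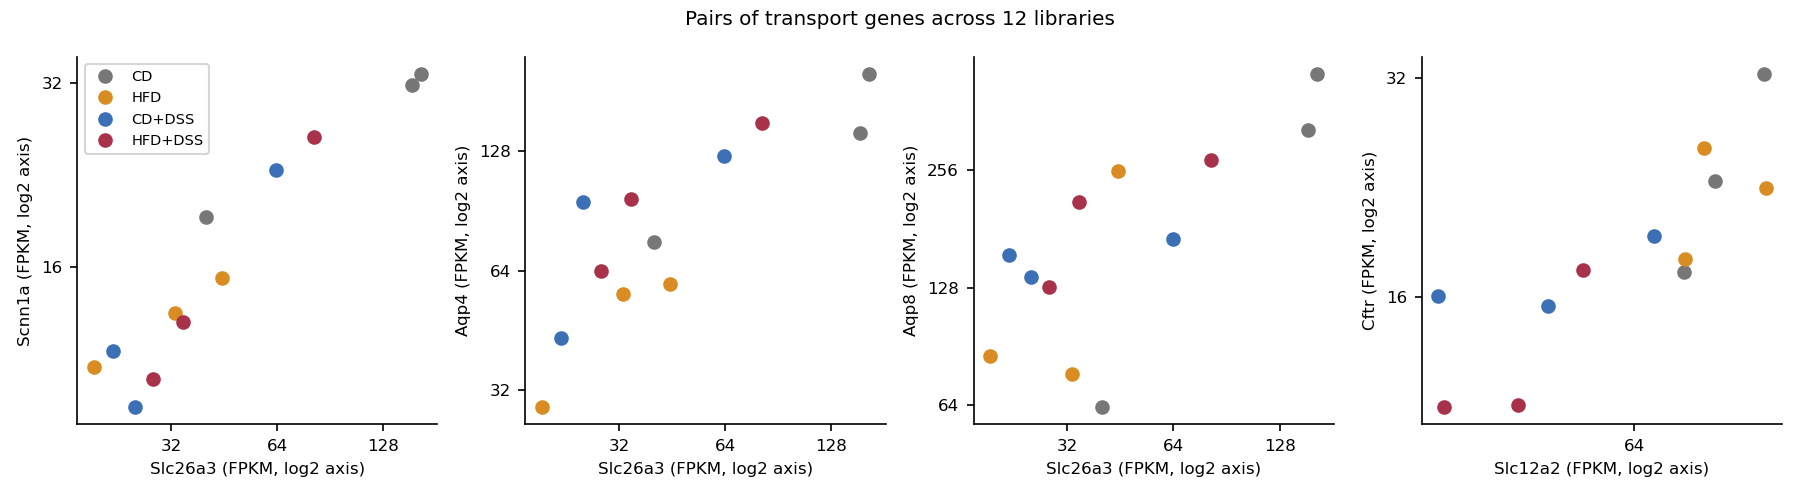
FPKM of 4 pairs of genes (both axes logarithmic, base 2), each point 1 of the 12 libraries, coloured by group. Slc26a3 and Scnn1a lie close to 1 line (r = 0.955 of log2(FPKM + 1)), with CD replicates 1 and 2 at its upper end, and Slc12a2 and Cftr (r = 0.84) run from the DSS libraries at the lower left to the libraries without DSS at the upper right.

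**Figure D4:**
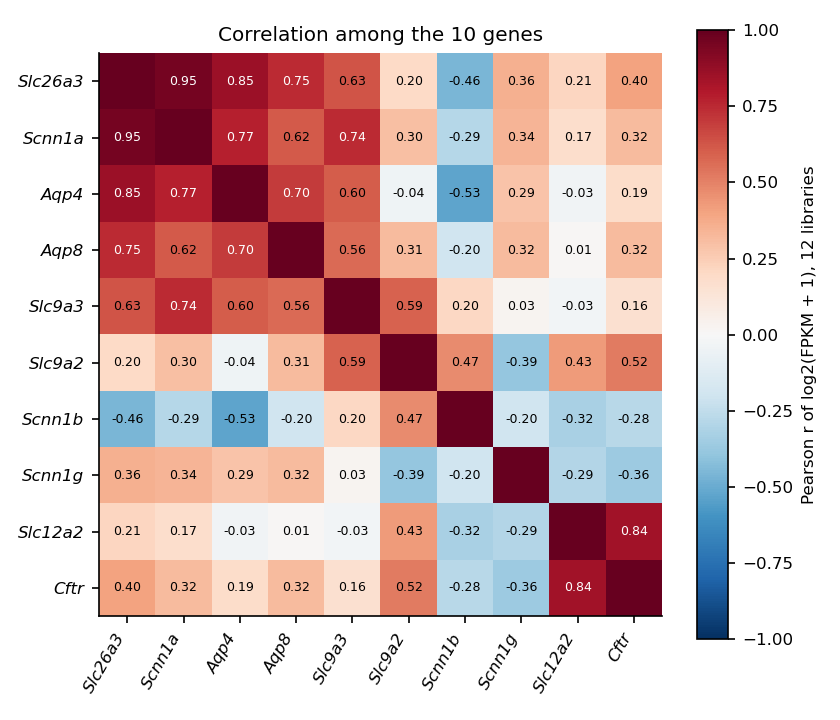
Pearson r of log2(FPKM + 1) over 12 libraries for all 45 pairs of the 10 genes (rows and columns, colour scale from -1 to 1). Slc26a3, Scnn1a, Aqp4, Aqp8 and Slc9a3 form 1 block of positive values and Slc12a2 and Cftr another. Values between these blocks run from -0.03 (Slc12a2 and Aqp4) to 0.40 (Cftr and Slc26a3).

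The levels of the uptake genes are given here for the low-Hox and high-Hox libraries, whose ranges overlapped for every member. In the 4 low-Hox libraries Slc26a3 lay between 19.3 and 32.9 FPKM, against 28.4 to 163.9 FPKM in the 8 others, and Scnn1a between 9.44 and 13.5 FPKM, against 10.5 to 33.1 FPKM. Scnn1g was 0.019 to 0.19 FPKM there and 0.14 to 0.81 FPKM in the 8 others. The medians of Aqp8 (111.1 against 233.3 FPKM), Aqp4 (49.6 against 110.4 FPKM) and Slc9a3 (38.7 against 53.8 FPKM) were lower in the low-Hox libraries. Those of Slc9a2 (49.7 against 46.2 FPKM), Scnn1b (1.79 against 1.71 FPKM), Slc12a2 (71.3 against 64.6 FPKM) and Cftr (18.7 against 17.35 FPKM) were higher there. Slc12a2 (49.3 to 95.4 against 35.3 to 94.8 FPKM) and Cftr (15.5 to 22.6 against 11.2 to 32.5 FPKM) overlapped widely between the 2. Since the 12 libraries fell into 2 clusters by the Hox level, no correlation over all of them is given. Within the 8 high-Hox libraries none of the 10 genes correlated with the Hox level after adjustment over the 10. The largest were Scnn1b (r = -0.691, exact permutation p = 0.0558, adjusted 0.558; rho = -0.643, exact permutation p = 0.0962, adjusted 0.481) and Scnn1g (r = 0.55, exact permutation p = 0.138, adjusted 0.69; rho = 0.69, exact permutation p = 0.0694, adjusted 0.481). Without the 2 libraries farthest from the median Hox level these r were -0.539 and 0.366. Without CD replicate 1 the Scnn1b r was -0.889 (exact permutation adjusted p = 0.0397). The low-Hox libraries are 2 of the 3 HFD and 2 of the 3 CD+DSS libraries, so the Hox level moved with the comparisons of HFD with CD, CD+DSS with CD and HFD+DSS with both. With the Hox level as a covariate the differences were -0.80 for Slc26a3, -0.92 for Aqp4 and -0.57 for Scnn1a in HFD against CD. In CD+DSS against CD they were -0.51 for Slc26a3 and -0.42 for Scnn1a, none called. The Slc12a2 difference averaged over both diets stayed at -0.83 (limma adjusted p = 0.0328).

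A companion list of 58 genes that regulate or work beside these transporters was read from the same fit. Of its members, 50 were tested. Averaged over both diets, 3 fell and 2 rose with DSS (the same 2.74% of all genes called), and none was called in the 5 other contrasts. The median difference over the 50 was -0.03, beside 0.01 for all genes. The 3 that fell were Slc4a4, Ptger4 and Tsc22d3. Slc4a4, the sodium-bicarbonate cotransporter of the blood-side membrane, measured 10.3, 18.7 and 11.8 FPKM in CD, 9.89, 14.1 and 10.8 FPKM in HFD, 7.66, 7.28 and 6.83 FPKM in CD+DSS, and 7.34, 7.68 and 5.23 FPKM in HFD+DSS, without overlap between DSS and the rest, as for 1.29% of all genes. Its averaged difference was -0.74 (SE 0.15, limma adjusted p = 0.0326), and it was the 1 called gene of the 7 tested in anion transport. Ptger4, the prostaglandin E2 receptor that raises cAMP, measured 13.2, 8.33 and 7.42 FPKM in CD, 7.05, 8.70 and 6.65 FPKM in HFD, 6.52, 5.39 and 5.28 FPKM in CD+DSS, and 4.09, 4.42 and 3.33 FPKM in HFD+DSS, also without overlap. Its averaged difference was -0.70 (SE 0.14, limma adjusted p = 0.026), 1 of 9 tested in guanylin and cAMP control. Tsc22d3 (GILZ), a target of corticosteroid receptors, measured 18.5 to 19.2 FPKM in CD, 12.4 to 21.7 FPKM in HFD, 8.06 to 11.4 FPKM in CD+DSS and 8.25 to 10.8 FPKM in HFD+DSS, again without overlap between DSS and the rest. Its averaged difference was -0.86 (SE 0.14, limma adjusted p = 0.0118).

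The 2 companion genes that rose were Pdzd3 and Nedd4l. Pdzd3, a scaffold protein that binds Slc9a3, measured 4.97, 4.79 and 6.29 FPKM in CD, 7.04, 5.61 and 6.96 FPKM in HFD, 10.0, 16.4 and 7.79 FPKM in CD+DSS, and 9.80, 12.6 and 14.2 FPKM in HFD+DSS. Its averaged difference was 0.86 (SE 0.16, limma adjusted p = 0.0226), 1 of 8 tested among sodium-proton exchange and scaffold genes, beside a difference of 0.04 for Slc9a3 itself. Nedd4l, the ubiquitin ligase that removes ENaC from the membrane, measured 5.72 to 7.22 FPKM in CD, 7.45 to 8.70 FPKM in HFD, 8.54 to 12.1 FPKM in CD+DSS and 9.60 to 12.1 FPKM in HFD+DSS. Its averaged difference was 0.49 (SE 0.11, limma adjusted p = 0.0391), so of the 10 tested genes of ENaC control and aldosterone response 1 rose and 1, Tsc22d3, fell. None was called among 6 sodium pump, 6 potassium transport, 2 other aquaporin and 2 fatty acid uptake genes tested.

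Several of these 5 calls depended on single libraries or on the settings. With no filter on low values Slc4a4, Ptger4, Pdzd3 and Nedd4l missed the threshold (limma adjusted p = 0.0699, 0.063, 0.0592 and 0.0682), and with the Hox level as a covariate Nedd4l did (0.0581). With a replicate block Pdzd3 (0.0602) and Nedd4l (0.0833) missed it. Leaving out 1 library ended the call of Slc4a4 for CD replicate 2, HFD replicate 2, each of the 3 CD+DSS libraries and HFD+DSS replicate 3 (adjusted p from 0.0564 to 0.1). It ended that of Ptger4 for CD replicate 2, HFD replicates 1 and 2 and CD+DSS replicates 2 and 3 (0.0511 to 0.0879), and that of Pdzd3 for CD replicates 1 and 2 and HFD replicate 2 (0.0648 to 0.0776). The call of Nedd4l was lost without any 1 of the 3 CD libraries, HFD replicates 1 and 2, CD+DSS replicates 2 and 3, or HFD+DSS replicates 1 and 3 (0.0557 to 0.117). The call of Tsc22d3 held in each of the 12. Without both HFD+DSS replicates 1 and 3 all 5 missed the threshold (limma adjusted p from 0.0803 to 0.209), with differences of -0.65 for Slc4a4, -0.63 for Ptger4, -0.89 for Tsc22d3, 0.89 for Pdzd3 and 0.42 for Nedd4l. With the epithelial level as a covariate they were -0.60, -0.67, -0.92, 0.45 and 0.37 in the same order, none called (limma adjusted p from 0.137 to 0.44). Over all genes that fit called 18, beside 389 in the main fit.

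**Figure D5:**
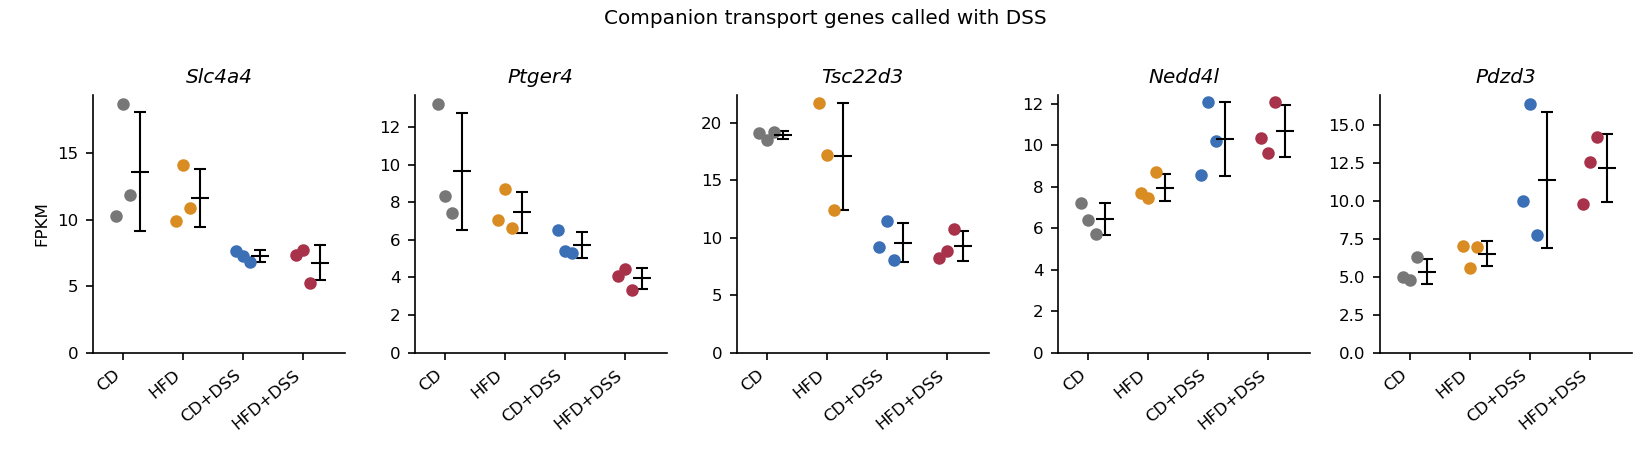
FPKM (y axis, linear) of the 5 companion genes called for DSS averaged over both diets in each of 12 libraries (points) by group (x axis), with group mean and SD as a black bar. Slc4a4, Ptger4 and Tsc22d3 lie lower in all 6 DSS libraries than in the 6 others (1.29% of all genes), and Pdzd3 lies higher (2.17% of all genes). Nedd4l overlaps between the 2.

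Companion genes that were not called also differed steeply between libraries. Atp12a, the colonic proton-potassium pump, measured 25.1, 114.2 and 34.0 FPKM in CD, 0.31, 0.65 and 36.5 FPKM in HFD, 44.0, 0.30 and 0.80 FPKM in CD+DSS, and 266.5, 45.1 and 43.1 FPKM in HFD+DSS. Its 4 values under 1 FPKM are those of the 4 low-Hox libraries, and the 8 others start at 25.1 FPKM, a split noticed after the values were seen. Fxyd4 (CHIF), a sodium pump regulator known as an aldosterone target, was highest in HFD+DSS replicate 1 (10.4 FPKM) and CD replicate 2 (5.85 FPKM) and lay between 0 and 0.23 FPKM in the low-Hox libraries, though 2 high-Hox libraries, CD replicate 1 (0.21 FPKM) and CD+DSS replicate 1 (0.090 FPKM), were as low. Slc5a8, the sodium-coupled carrier of short-chain fatty acids, measured 85.6, 91.3 and 47.2 FPKM in CD against 25.8, 34.4 and 38.6 FPKM in HFD, and was not called in any contrast. Guca2a (guanylin), a peptide that slows sodium uptake and promotes chloride secretion, was the most abundant of the 58, with 1230 to 2293 FPKM in CD, 1346 to 1537 FPKM in HFD, 1076 to 2213 FPKM in CD+DSS and 554.6 to 925.5 FPKM in HFD+DSS. Its 3 HFD+DSS libraries lay below all 3 HFD and all 3 CD+DSS libraries. Among all genes tested, HFD+DSS lay wholly below HFD for 7.60% and wholly below CD+DSS for 5.85%. Guca2a was not called in any contrast. Ano1, a calcium-activated chloride channel that is also abundant in the pacemaker cells of the gut wall, measured 21.4 to 32.6 FPKM in CD and 11.1 to 12.0 FPKM in HFD, 6.12 to 10.9 FPKM in CD+DSS and 5.76 to 20.3 FPKM in HFD+DSS, likewise not called.

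For the members, the tested genes with the most similar pattern over the 12 libraries were sought among 13312 genes with a mean of 1 FPKM or more. Phlpp2 was the closest to Slc26a3 (r = 0.926) and the second closest to Scnn1a (r = 0.90), after Nlrp10 (r = 0.902). Paip2b was closest to Slc12a2 (r = 0.953), Glud1 to Cftr (r = 0.929), Fam69a to Slc9a2 (r = 0.954), Nsdhl to Aqp8 (r = 0.899), Gm28875 to Aqp4 (r = 0.919), Tsku to Scnn1b (r = 0.933) and Casp14 to Scnn1g (r = 0.943). These are the highest of many values and are given as a description of the libraries. The r of 0.955 between Slc26a3 and Scnn1a is higher than that of either with any of the 13312.

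By position, in the GENCODE M21 annotation of mm10, Scnn1b (chromosome 7, 121865038 to 121918514, plus strand) and Scnn1g (chromosome 7, 121734479 to 121768475, plus strand) are neighbours, while Scnn1a lies on chromosome 6 (125320659 to 125344943, plus strand). Aqp8 lies on chromosome 7 (123462291 to 123468004), Slc26a3 on chromosome 12 (31390871 to 31473917), Slc9a3 on chromosome 13 (74121457 to 74169442), Slc9a2 on chromosome 1 (40680574 to 40769273) and Cftr on chromosome 6 (18170687 to 18322768), all on the plus strand. Aqp4 (15389496 to 15410982, minus strand) and Slc12a2 (57878678 to 57946821, plus strand) lie on chromosome 18. The neighbouring Scnn1b and Scnn1g had r = -0.20 over the 12 libraries (permutation p = 0.568, adjusted 0.673; rho = 0.014, permutation p = 0.973, adjusted 0.973), with 0.0846 without the 2 libraries farthest from the median of Scnn1b. Exons of the annotation overlap another gene for Cftr only.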

How the data were processed

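Colon mRNA libraries were made with a SMARTER mRNA-Seq kit from column-purified total RNA, per the labels' protocols, and the genome build was mm10, per the submitters' processing notes. Neither the aligner nor the counter is given in the sources used here. Gene by sample, the values were deposited as FPKM. Low FPKM values stepped in whole multiples, so fragments were recovered with GENCODE M21 exon lengths, and 96.9% to 97.2% of values per library came out whole within 0.1 fragment. The median ratio to the mean library was 1.009 in every library, so the deposited values were already scaled between libraries.

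Tests used log2(FPKM + 1) in limma 3.58.1 (R 4.3.3, trend), keeping the 14179 genes that reached FPKM 1 in 3 or more of the 12 samples and 1 fit of all samples with a mean per group. The limma p-values were adjusted by Benjamini-Hochberg over all genes tested, and the fit was tested on simulated data. Fold changes on this scale understate those of low genes. Correlations used permutation tests in scipy 1.17.1. No replicate pair agreed within counting noise. The planned correlation with the Hox level over all 12 libraries was replaced by one within the larger cluster. Named companion genes were those called in any contrast and up to 3 per sublist with the smallest p, of which some are given by values only here. The members, lists and alternatives were chosen with earlier results of these data known. Alternatives were another pseudocount, filters, scaling, covariates, a replicate block, limma-voom on the recovered fragments, and leaving out libraries. Some items are not reported here.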

Additional observations from a re-analysis of the deposited data

How the results depend on the processing

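Of the differences between groups that the text prints, those of Aqp8, Slc9a3 and Scnn1b averaged over both diets, all small beside their errors, changed sign under some alternatives. Aqp8 was -0.0073 under quantile normalization, -0.24 with the epithelial level as a covariate (chosen after seeing the data) and -0.30 to 0.40 leaving out 1 library. Slc9a3 was -0.11 under quantile normalization, -0.030 with the smooth muscle level and -0.29 with the epithelial level as a covariate, -0.041 without HFD+DSS replicates 1 and 3 together (also chosen after seeing the data), and -0.26 to 0.29 leaving out 1 library. Scnn1b was -0.29 with the epithelial level. The other fold changes of single genes that the text prints kept their sign, whereas the member medians for HFD+DSS against HFD (-0.24 with the Hox level) and HFD+DSS against CD+DSS (0.19 with the smooth muscle level) did not.

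Counts of called genes moved widely, for causes not tested. For CD+DSS against CD, 12 became 5 with no filter, 32 at FPKM 5 or more, 0 with only those groups or with the Hox or smooth muscle level, 1 with the epithelial level, 26 without both HFD+DSS replicates, and 0 to 33 leaving out 1 library. For HFD+DSS against HFD, 48 became 10 with no filter, 12 with only those groups, 1 with the Hox, 21 with the smooth muscle and 13 with the epithelial level, 0 without both HFD+DSS replicates, and 1 to 78 leaving out 1. For DSS averaged over both diets, 389 became 173 with no filter, 18 with the epithelial level, 34 without both HFD+DSS replicates, and 114 to 479 leaving out 1, and the count of members called went from 1 to 0 under these 3 settings and ranged from 0 to 2. Leaving out 1 library gave 0 to 2 genes for HFD against CD, 0 to 1 for HFD+DSS against CD+DSS and 0 to 3 for the interaction, and no filter gave 2 and 1 for the last 2. The count of members that correlated with the Hox level was 0 to 1.

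The replicate numbers showed no strong pairing of the samples: the 18 correlations of same-numbered deviations from group means ran from -0.462 to 0.204. A weaker pairing or a batch could go unseen with 3 libraries per group. With a replicate block 2 genes were called for CD+DSS against CD, 12 for HFD+DSS against HFD and 162 with 0 members for DSS averaged over both diets. Depth limits Scnn1g, at 1 to 41 fragments.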
